A study of Sus scrofa with 6 samples.

Results

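The growth factor and TGF-beta pathway genes measured on the array were 45 genes, out of 6765 genes that a single symbol named on at least 1 probe set. They were chosen by symbol alone: all genes beginning with TGFB, SMAD, BMP, ACVR, INHB, LTBP, FGF, PDGF or IGF, with FST, EGF, EGFR, HGF, MET, VEGFB and VEGFC added. The LTBP genes, HGF, MET and VEGFC had no member and are not analysed here. TGFBR2, BMPR2, SMAD2, SMAD6, SMAD7, PDGFA, PDGFRA and IGFBP3 also had no probe set named by their symbol alone, so nothing is said of them. A gene with several probe sets was represented by the one with the highest mean over the 6 arrays. A choice by symbol also takes in genes that are not secreted growth factors or their receptors, such as FGF12 and FGF13, which act inside the cell, and BMP1, a metalloprotease that trims procollagen.

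The arrays measured left atrial RNA of 6 Lanyu miniature pigs, all male and 18 months old, with 1 Affymetrix array per animal and 2 animals in each of 3 groups. MRV animals had mitral regurgitation, in which blood leaks back into the atrium at each beat, and received the angiotensin II receptor blocker valsartan. Their lesion was a hole of 2.8 mm in the posterior mitral leaflet, and valsartan was given at 3.43 mg/kg/day, starting before the operation and kept up each day after it. MR animals had the same lesion without valsartan, and both lesioned groups were killed 12 months after surgery. NC animals were age-matched normal controls for which the labels record no operation, so the lesion and the surgery cannot be told apart in a comparison with NC.

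TGF-beta, activin and BMP ligands bind paired type I and type II receptor kinases, which phosphorylate SMAD proteins that then enter the nucleus with SMAD4. FGF, PDGF, IGF, EGF and VEGF ligands act through receptor tyrosine kinases and the MAP kinase and AKT pathways. In the heart TGF-beta is best known for activating fibroblasts and matrix deposition, and angiotensin II is known to induce it, which is the background to asking about these genes under valsartan.

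The deposited intensities are linear and had been normalized between arrays, with array medians from 90.2 to 93.4. NC1 stood apart, with a mean correlation of 0.963 with the other arrays across tested probe sets, against 0.972 to 0.976 for the other 5. The 3' to 5' actin ratio, a measure of RNA integrity that is higher in degraded RNA, was 2.30 and 1.87 in MRV, 1.44 and 1.70 in MR, and 1.61 and 1.91 in NC. The 28S rRNA control probe set read 341 and 559 in MRV, 187 and 280 in MR, and 117 and 468 in NC. It was higher in both MRV arrays than in both MR arrays, lower in the first animal of each group, and lowest in NC1. Its part in the values below was not tested. For the tissue check, 4 of 6 atrial myocyte markers were measured, and NPPA, the atrial natriuretic peptide gene, read between 18414 and 20170 on all arrays. The summed signal of those 4 markers was 68002 and 65454 in MRV, 63313 and 68350 in MR, and 64975 and 67728 in NC, so the groups overlapped. Of 5 ventricular muscle markers, 4 were measured. MYL2, the ventricular myosin light chain gene, read 152 and 954 in MRV, 10693 and 2318 in MR, and 203 and 325 in NC. MYL3 read 8476 and 8316 in MRV, 10583 and 10329 in MR, and 8584 and 10061 in NC. MYH7 and HEY2 overlapped between MR and NC. The part of MYL2 and the other ventricular markers in the MR values below was not tested. Values are for bulk tissue, in which fewer cells of a type and less RNA per cell cannot be told apart.

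Of the 45 members, 29 passed the filter on dim probe sets, a mean of at least 61.4 intensity units, and were tested. The 16 others had means from 12.0 to 59.6 and are described at the end. Differences are on the log2(intensity + 16) scale and come from limma, with p-values adjusted by Benjamini-Hochberg over all 14400 tested probe sets. No member passed an adjusted p of 0.05 in any of the 3 comparisons, so every difference below is a description. With 2 animals a group, an exact permutation test of a single gene could not fall below p = 0.333 (two-sided).

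Whether the lesion alters these genes was addressed by MR against NC. With limma, 0 of 29 members passed the adjusted threshold, against 1 of 14400 probe sets (0.00694%), and 1 member had an unadjusted p under 0.05, against 4.02% of all probe sets. A difference of at least 0.5 log2 (1.41-fold) without overlap between the arrays was seen for 1 member, which was lower in MR, against 2.34% of all probe sets (1.06% higher and 1.28% lower). The arrays did not overlap, at any size of difference, for 8 of 29 members, against 26.8% of all probe sets. The median log2 difference of the tested members was -0.0024, against 0.0023 for all probe sets, and 12 of 29 were higher in MR, against 50.6% of all probe sets. The median half-width of a member's 95% interval was 0.40 log2, and members differed, with an SE from 0.098 for INHBA to 0.84 for IGFBP5. These intervals are not adjusted for the number of probe sets, so a change beyond them need not pass the adjusted threshold.

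Whether valsartan alters them in lesioned animals was addressed by MRV against MR. With limma, 0 of 29 members passed the adjusted threshold, against 0 of 14400 probe sets (0%), and 2 had an unadjusted p under 0.05, against 7.28% of all probe sets. The rule of at least 0.5 log2 without overlap took 1 member, which was higher in MRV, against 5.37% of all probe sets (2.47% higher and 2.9% lower). The arrays did not overlap for 10 of 29 members, against 42.4% of all probe sets. The median log2 difference was -0.034, against -0.0056 for all probe sets, and 11 of 29 members were higher in MRV, against 48.6%.

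In MRV against NC, again 0 of 29 members passed with limma, against 0 of 14400 probe sets (0%), and 2 had an unadjusted p under 0.05, against 5.29% of all probe sets. The 0.5 log2 rule took 3 members, all lower in MRV, against 3.46% of all probe sets (1.26% higher and 2.2% lower). That count was 0 without NC1 and 7 without NC2. The median log2 difference was -0.058, against -0.0039 for all probe sets, with 11 of 29 members higher in MRV, against 49%. The arrays did not overlap for 8 of 29 members, against 33.2%. The comparisons share arrays, so the values of one member in them are not independent of each other.

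**Figure D1:**
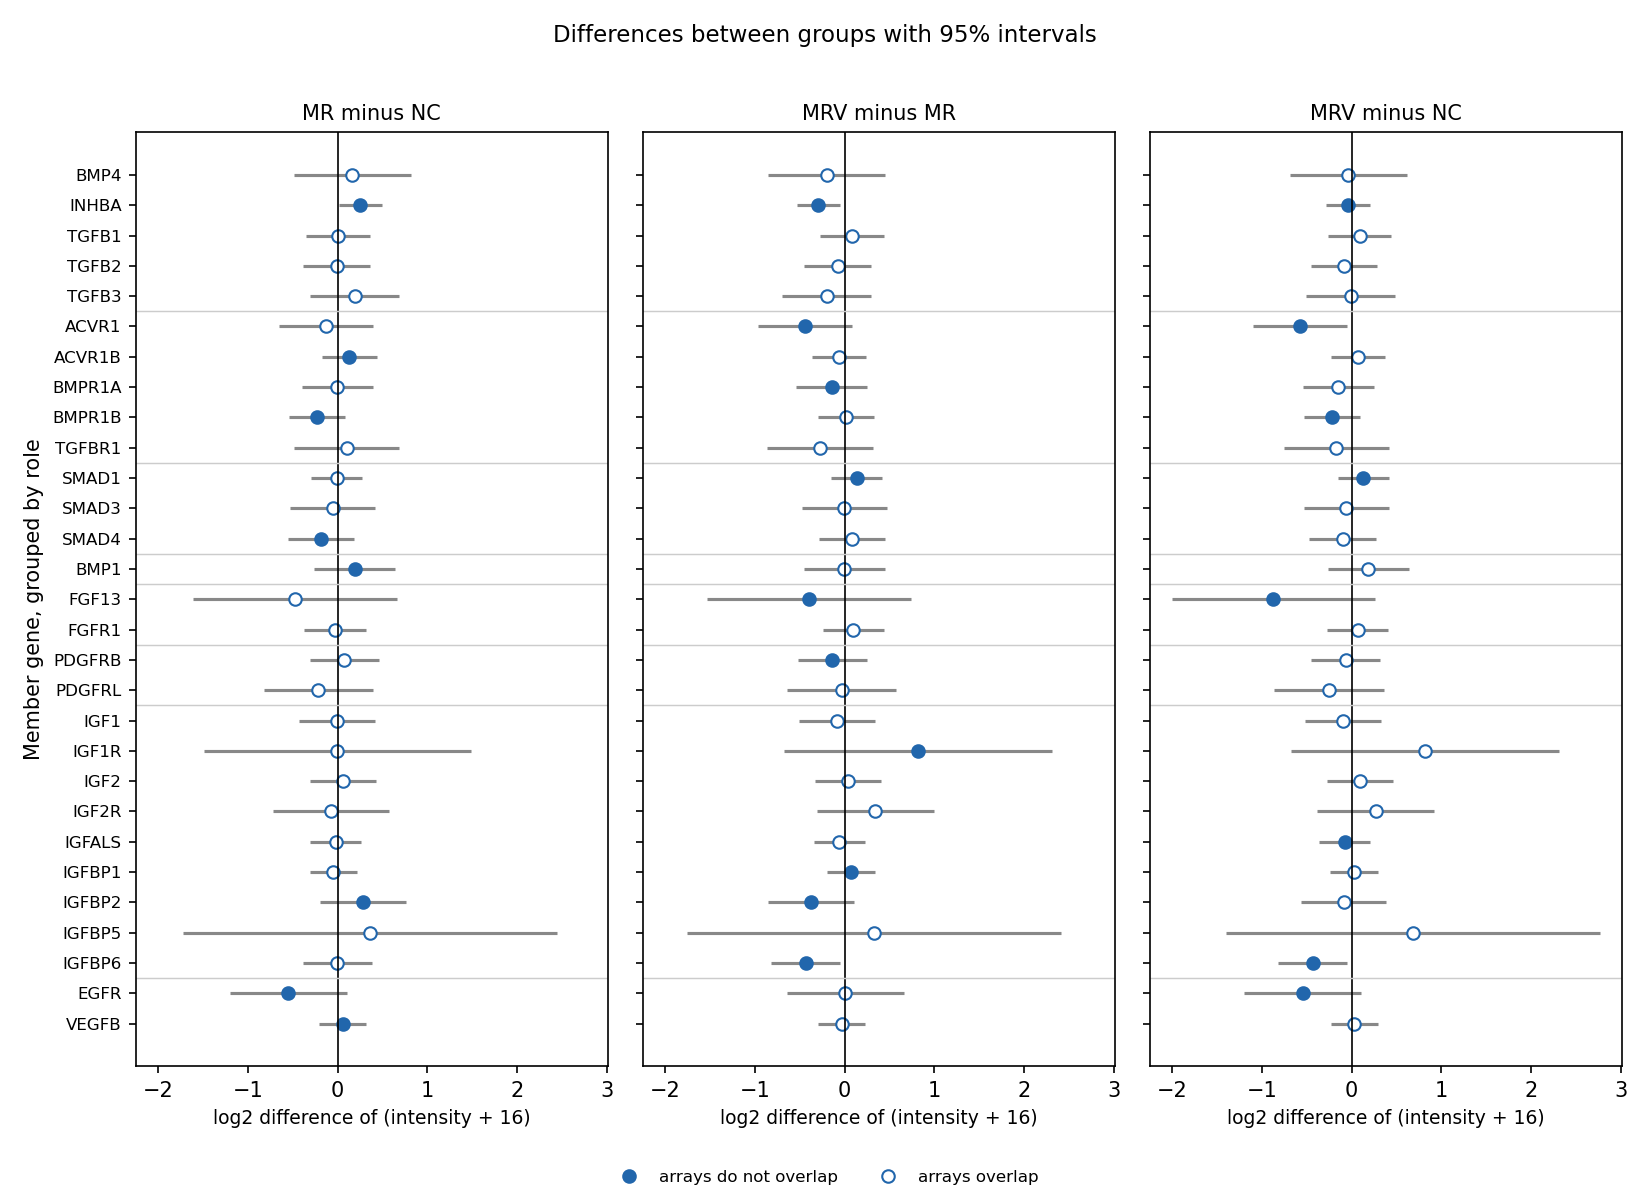
Log2 difference of (intensity + 16) for the 29 tested members in each comparison, with 95% intervals from limma, grouped by role. Filled points mark groups of 2 arrays that do not overlap. The longest intervals are those of IGFBP5, IGF1R and FGF13, and most intervals span 0.

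Among the ligands of the TGF-beta superfamily, 5 of 8 were tested. INHBA encodes the subunit of activin A, a ligand that signals through SMAD2 and SMAD3. It read 213 and 217 in MRV, 262 and 274 in MR, and 221 and 222 in NC. Both MR arrays lay above the other 4, and the animals within each group differed little. The log2 difference was 0.25 in MR against NC (SE 0.098, limma adjusted p = 0.999955) and -0.29 in MRV against MR (SE 0.098, limma adjusted p = 0.626). In MRV against NC it was -0.042, with a 95% interval from -0.28 to 0.20. The MR arrays enter both of the larger differences, so their opposite signs are not 2 separate observations. Across all alternatives the MR against NC difference of INHBA stayed between 0.21 and 0.28, and the MRV against MR difference between -0.32 and -0.25, without any passing the threshold. The smallest adjusted p among these was 0.435.

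TGFB1, the isoform most often tied to fibrosis, read 178 and 182 in MRV, 149 and 191 in MR, and 179 and 159 in NC. The arrays of the groups overlapped in every comparison. Its log2 difference in MR against NC was 0.0056, with a 95% interval from -0.35 to 0.36, and in MRV against MR 0.083, from -0.27 to 0.44. TGFB2 read 93.5 and 75.2 in MRV, 80.4 and 99.2 in MR, and 84.7 and 95.5 in NC. TGFB3 read 128 and 166 in MRV, 141 and 204.5 in MR, and 143 and 151 in NC. For both isoforms the animals within MR lay further apart than the group means did. BMP4, a ligand with roles in heart development, read 154 and 241 in MRV, 201 and 250.2 in MR, and 164 and 239 in NC, and in each group the second animal was higher.

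Among the receptors of the superfamily, 5 of 8 were tested, and TGFBR2 and BMPR2 were not among the 8. ACVR1, a type I receptor that serves BMP and activin ligands, read 812 and 546 in MRV, 879 and 945.5 in MR, and 1109.9 and 898 in NC. Both MRV arrays lay below the other 4, and MRV2 lay well below MRV1. The log2 difference was -0.57 in MRV against NC (SE 0.21, limma adjusted p = 0.904) and -0.44 in MRV against MR (SE 0.21, limma adjusted p = 0.724). Without MRV2 these were -0.29 and -0.16, and without MRV1 -0.85 and -0.72. A further tested probe set of ACVR1 read 305 and 236 in MRV, 446 and 383 in MR, and 515 and 364 in NC. There the log2 differences were -0.66 in MRV against NC and -0.59 in MRV against MR, again with both MRV arrays lowest.

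TGFBR1, the type I receptor of TGF-beta itself, read 260.5 and 235 in MRV, 259 and 353 in MR, and 347 and 226 in NC. Its highest values came from MR2 and NC1, and the groups overlapped in all comparisons. The BMP receptor BMPR1A read 182 and 189 in MRV, 205.5 and 207.5 in MR, and 243.5 and 175 in NC. BMPR1B read 176 and 186 in MRV, 170.2 and 188 in MR, and 195 and 233 in NC. The log2 difference of BMPR1B in MR against NC was -0.23 (95% interval -0.55 to 0.081). Its other tested probe set gave -0.24 there but 0.34 in MRV against MR, where the one used gave 0.017. ACVR1B, the activin type I receptor, had differences from -0.059 to 0.13.

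The SMAD genes among the members were SMAD1, SMAD3 and SMAD4, and all 3 were tested. SMAD2, SMAD6 and SMAD7 were not members. SMAD3, which carries the TGF-beta and activin signal, read 84.0 and 122 in MRV, 90 and 115 in MR, and 102.5 and 110.2 in NC. SMAD4, the partner shared by both branches, read 1108.5 and 868 in MRV, 896 and 953.5 in MR, and 1114 and 996 in NC. SMAD1, of the BMP branch, read 339 and 327 in MRV, 293 and 309.8 in MR, and 282 and 326 in NC. Both MRV arrays of SMAD1 lay above the other 4, and both MR arrays of SMAD4 lay below both NC arrays. The log2 differences of these SMAD genes over the comparisons lay between -0.19 and 0.14, all smaller than the 0.40 half-width of the typical interval. BMP1, tested among the extracellular modulators, had differences from -0.0038 to 0.19.

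**Figure D2:**
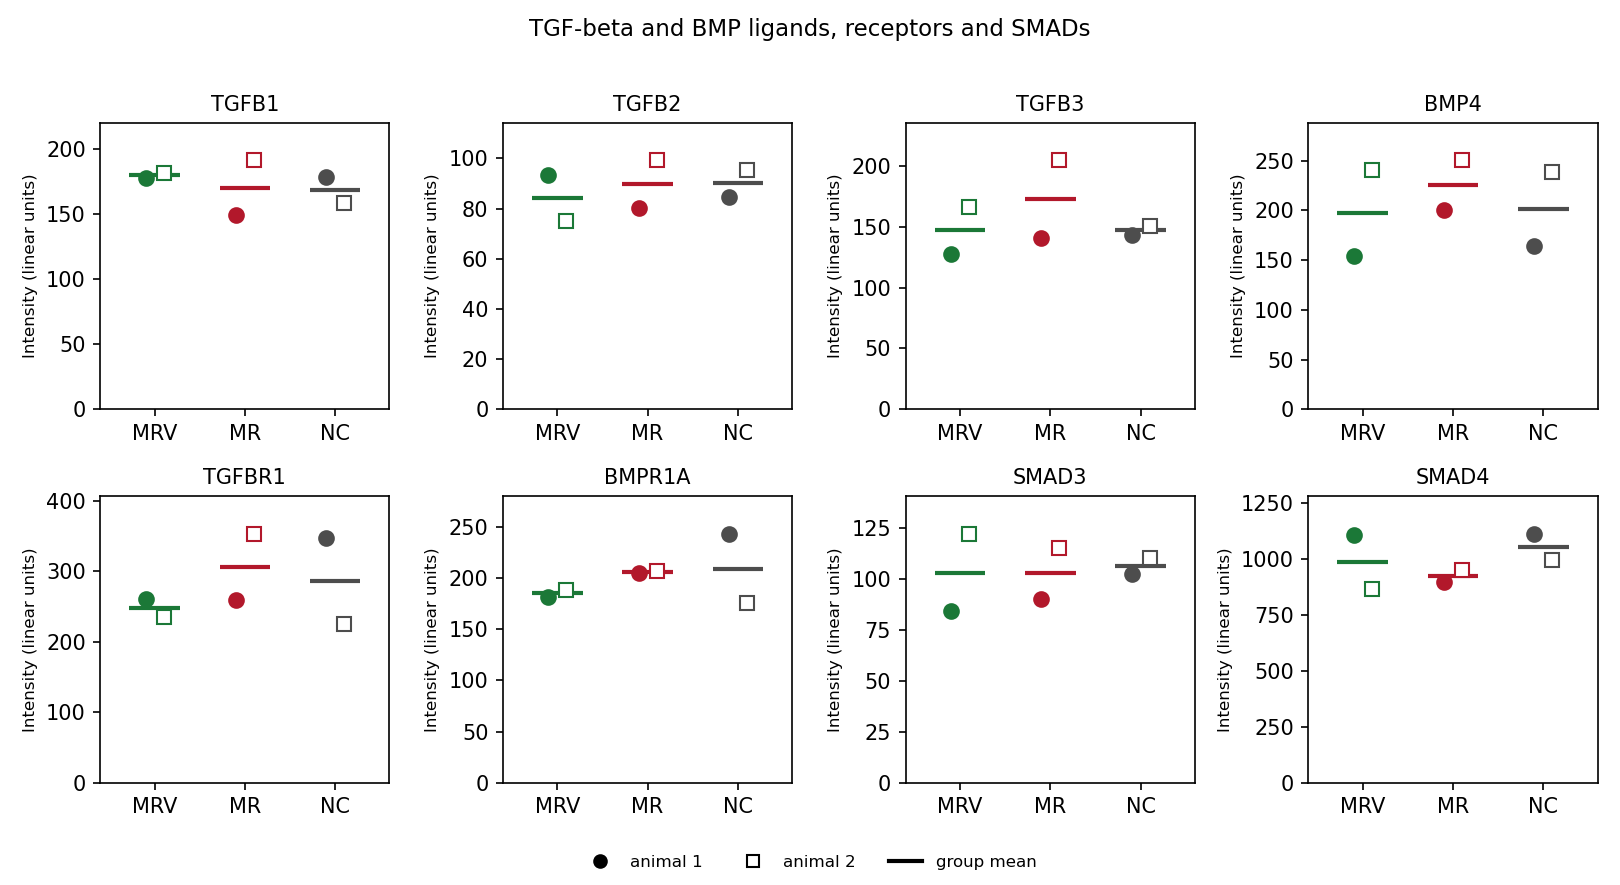
Intensity in linear units of TGF-beta and BMP ligands, receptors and SMADs by group, with circles for animal 1, squares for animal 2 and bars for the group mean. The groups overlap for TGFB1, TGFB2, TGFB3, BMP4, TGFBR1 and SMAD3 in every comparison.

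All 9 members of the IGF system were tested. IGFBP6, a binding protein with a preference for IGF2, read 326 and 363 in MRV, 488.5 and 452 in MR, and 539 and 410.5 in NC. Both MRV arrays lay below the other 4. The log2 difference was -0.43 in MRV against MR (SE 0.16, limma adjusted p = 0.656) and -0.43 in MRV against NC (SE 0.16, limma adjusted p = 0.904). Its difference in MR against NC was -0.0018, with a 95% interval from -0.39 to 0.38. A further probe set of IGFBP6 read 93.4 and 114 in MRV, 186 and 206 in MR, and 211 and 181 in NC, again with both MRV arrays lowest. That probe set differed by -0.83 in MRV against MR (SE 0.14, limma adjusted p = 0.386) and by -0.82 in MRV against NC (SE 0.14, limma adjusted p = 0.709).

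The actin ratio was higher in both MRV arrays than in both MR arrays. With it as a covariate the IGFBP6 difference in MRV against MR was -0.12, against -0.43 without it, while that of ACVR1 was -0.67 and that of INHBA -0.31. Of the fibroblast markers, 7 of 8 were measured and 6 tested. Their summed signal was 7505 and 10402 in MRV, 8812 and 9910.0 in MR, and 11079 and 8772 in NC, and the groups overlapped. DCN made up the largest part of each sum. The log2 difference in MRV against MR was 0.26 for DCN and 0.075 for COL1A2. It was -0.25 for LUM, -0.32 for DPT, -0.44 for FBLN1 and -0.97 for POSTN. The median of the tested fibroblast markers was -0.29, against -0.0056 for all probe sets. Of the smooth muscle and pericyte markers, 4 of 6 were measured, with sums of 4235 and 4998.5 in MRV, 5283 and 5019.5 in MR, and 6294 and 4985 in NC. The MRV sums lay below the MR sums, MRV2 only just below MR2. By marker, the log2 difference in MRV against MR was -0.73 for CNN1 and -0.41 for TAGLN, against 0.017 for ACTA2 and 0.014 for RGS5, and the part of these markers in the values of IGFBP6 and ACVR1 was not tested. No marker of these lists was at 0, but neither was any probe set, the lowest reading on any array being 4.8.

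IGF1R, the receptor for both IGF ligands, read 205 and 350.2 in MRV, 120 and 176 in MR, and 69.8 and 288.5 in NC. The MRV arrays lay above the MR arrays, but NC1 was the lowest of the 6 and NC2 the second highest. From lowest to highest the arrays ran NC1, MR1, MR2, MRV1, NC2 and MRV2, the same order as in the 28S rRNA control. That order was noticed after the values had been seen, and the part of the control in the IGF1R values was not tested. The log2 difference in MRV against MR was 0.82 (SE 0.60, limma adjusted p = 0.790), with a 95% interval from -0.68 to 2.31. In the fit that holds the actin ratio it was 0.15, and in the other tested probe set 0.32. In MRV against NC it was 0.82 with all arrays and -0.098 without NC1, and in MR against NC it was -0.92 without NC1 and 0.91 without NC2.

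The ligand genes of this receptor showed narrower ranges. IGF1 read 122 and 175 in MRV, 159 and 154 in MR, and 151 and 164 in NC, and IGF2 read 484 and 562 in MRV, 492 and 524 in MR, and 435 and 546 in NC. The groups overlapped for both ligands in all comparisons. The 95% interval of IGF2 ran from -0.33 to 0.41 in MRV against MR and from -0.31 to 0.43 in MR against NC. IGFBP5, a binding protein abundant in extracellular matrix, read 132.5 and 183 in MRV, 56.2 and 243 in MR, and 34.9 and 208 in NC. Its first animal was the lower in each group, and the log2 value of animal 1 minus animal 2 was -0.42 in MRV, -1.84 in MR and -2.14 in NC. The other binding proteins were IGFBP1, with differences from -0.045 to 0.070, and IGFBP2, at 52.2 and 80.3 in MRV, 87.5 and 90.5 in MR, and 78.8 and 62.5 in NC. Both MR arrays of IGFBP2 lay above the other 4. IGF2R, which clears IGF2, had log2 differences from -0.074 to 0.34, and IGFALS, which carries IGF in a ternary complex, from -0.078 to -0.019.

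Of the EGF and VEGF members, EGFR and VEGFB were tested. EGFR, the receptor for EGF and related ligands, read 183 and 170.1 in MRV, 154 and 199 in MR, and 349 and 199.7 in NC. The NC1 array stood far above the rest, and NC2 lay within 1 unit of MR2. The log2 difference was -0.55 in MR against NC (SE 0.26, limma adjusted p = 0.999955) and -0.55 in MRV against NC (SE 0.26, limma adjusted p = 0.904). Without NC1 these were -0.17 and -0.16. The other EGFR probe set read 200 and 195 in MRV, 141 and 192.5 in MR, and 183 and 248 in NC, so NC1 was not high there. VEGFB, which encodes a ligand of the VEGF receptor FLT1, read 1162 and 1292 in MRV, 1262 and 1242.5 in MR, and 1206 and 1197 in NC. Its differences lay between -0.031 and 0.059, and its SE of 0.11 was among the smallest of the members.

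FGF13, an intracellular FGF homologue that binds sodium channels, read 63.4 and 60.6 in MRV, 79.9 and 94.0 in MR, and 225 and 68.4 in NC. As for EGFR, NC1 was the array that stood apart. The log2 difference in MRV against NC was -0.87 (SE 0.46, limma adjusted p = 0.904) with all arrays and -0.11 without NC1. In MR against NC it was -0.47, and 0.28 without NC1, which turns its direction. FGFR1, an FGF receptor, read 908 and 807 in MRV, 792 and 808 in MR, and 907 and 735.5 in NC, and the groups overlapped in every comparison. Its other tested probe set read 184.9 and 197.8 in MRV, 169.8 and 131.2 in MR, and 171.7 and 184.2 in NC, without overlap in any comparison. There the log2 difference was -0.23 in MR against NC, 0.33 in MRV against MR and 0.096 in MRV against NC. PDGFRB, the PDGF receptor of pericytes and fibroblasts, read 590.3 and 546 in MRV, 598 and 656 in MR, and 680.1 and 519 in NC. Both MRV arrays of PDGFRB were lower than both MR arrays, by a log2 difference of -0.14 (95% interval -0.52 to 0.25). In its other tested probe set both MRV arrays were higher than both MR arrays, by 0.11. The PDGF receptor-like gene PDGFRL had differences from -0.25 to -0.034.

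**Figure D3:**
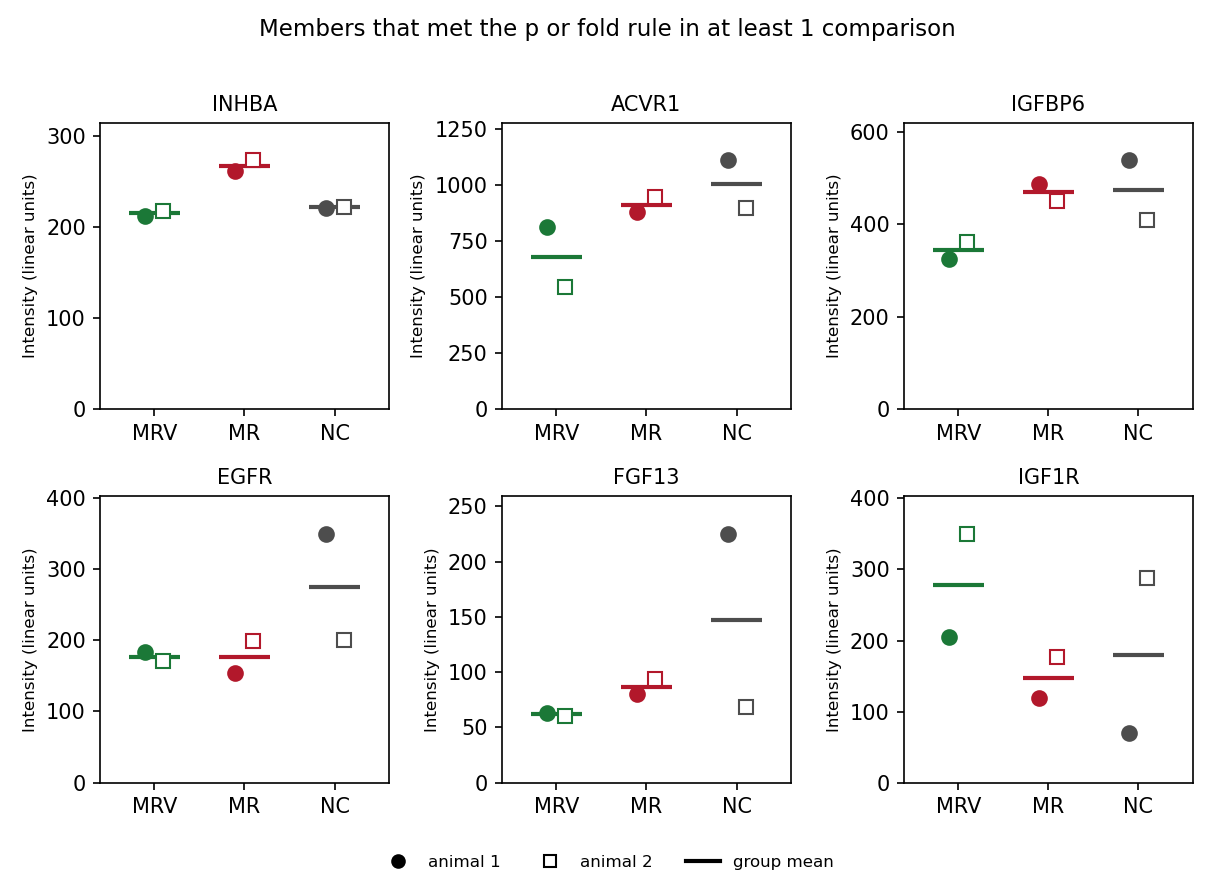
Intensity in linear units of the 6 members with an unadjusted p under 0.05, or at least 0.5 log2 apart without overlap, in at least 1 comparison. Circles are animal 1, squares animal 2 and bars group means. INHBA is highest in both MR animals, ACVR1 and IGFBP6 are lowest in both MRV animals, and the extremes of EGFR and FGF13 come from the first NC animal.

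Some members differed widely between the 2 animals of a group. Such a gap is between single arrays, so it varies more than a difference between means of 2 arrays. A gap of at least 0.5 log2 between the animals was seen for 4 of 29 members in MRV, 3 in MR and 7 in NC, or 13.8%, 10.3% and 24.1%. Over all tested probe sets the shares were 6.5%, 6.83% and 13.2%. The median gap of the members was 0.17 in MRV, 0.13 in MR and 0.27 in NC, against 0.13, 0.14 and 0.18 for all probe sets. In NC the largest gaps were those of IGFBP5, IGF1R and FGF13, with log2 values of -2.14, -1.83 and 1.52 for NC1 minus NC2. Of the adipocyte markers, 6 of 7 were measured, with sums of 2204 and 1216 in MRV, 1987 and 2483 in MR, and 3721 and 2557 in NC. NC1 had the highest sum, most of it from FABP4 at 2911, against 1997 in NC2. NC1 was also the highest array for CIDEA and DGAT2, whereas ADIPOQ, LIPE and LEP were lower in NC1 than in NC2. ADIPOQ, at 20.3 to 35.1, lay below the filter on dim probe sets. No marker of the list was at 0, but neither was any probe set, the lowest reading on any array being 4.8. NC1 was also the array with the lowest 28S rRNA control. The part of these markers and of that control in the NC1 values of EGFR and FGF13 was not tested.

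**Figure D4:**
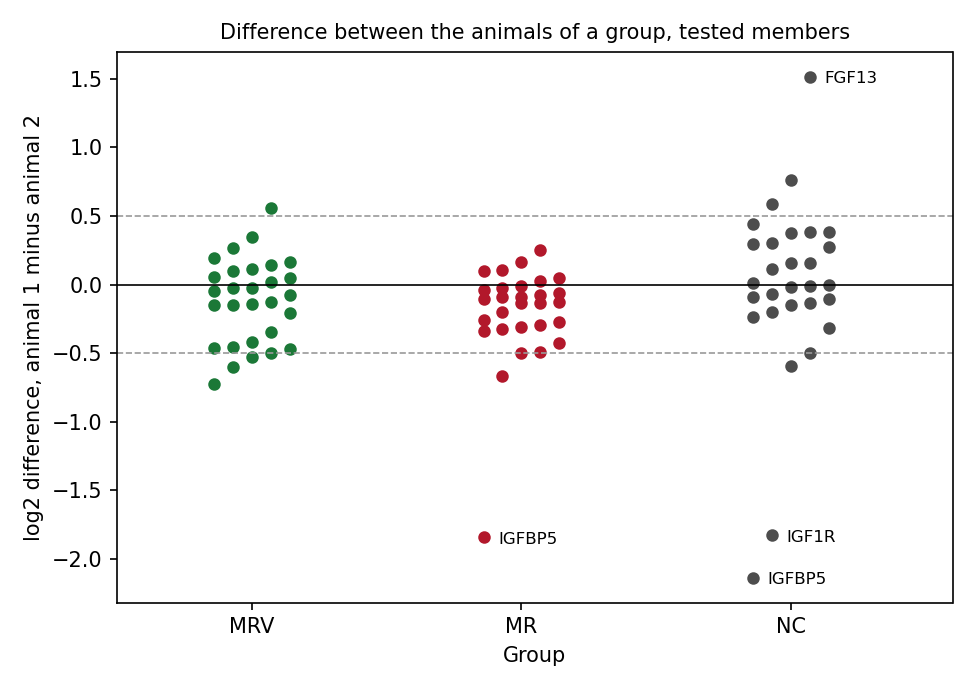
Log2 difference between animal 1 and animal 2 of each group for the 29 tested members, with dashed lines at 0.5 and -0.5. IGFBP5 is the widest in both MR (-1.84) and NC (-2.14), followed in NC by IGF1R (-1.83) and FGF13 (1.52).

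The 45 members had 87 probe sets, of which 48 passed the filter, and 12 genes had more than 1 tested probe set. The probe sets of a gene kept 1 direction for ACVR1 and IGFBP6 in both MRV comparisons. EGFR, FGFR1, IGF1R and TGFB2 also kept 1 direction across their probe sets in every comparison. For BMP1, BMPR1B, IGF1, IGF2, PDGFRB and PDGFRL the direction differed between probe sets in at least 1 comparison. IGF2 had 9 tested probe sets, and one of those not used read 368 and 328.5 in MRV, 382 and 460 in MR, and 607 and 408 in NC, with NC1 again the highest. Its log2 difference in MRV against NC was -0.50, against 0.095 for the probe set used.

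**Figure D5:**
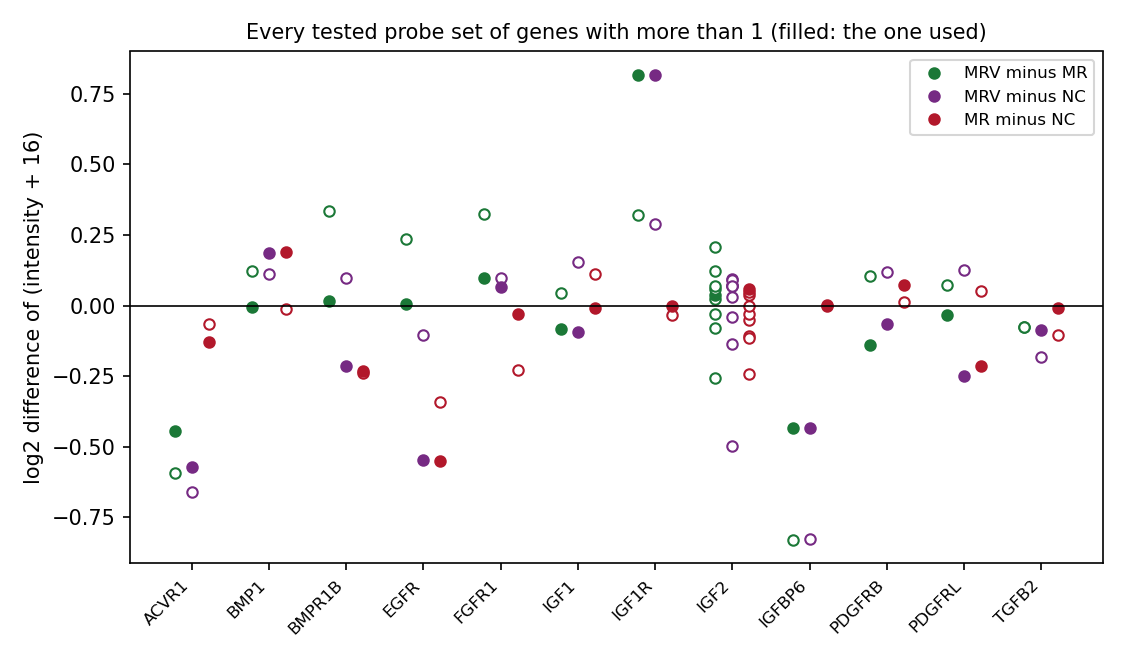
Log2 difference of (intensity + 16) for each tested probe set of the 12 members with more than 1, with filled points for the probe set used and colours for the comparisons. ACVR1 and IGFBP6 lie below 0 in MRV minus MR and MRV minus NC in all of their probe sets, while the IGF2 probe sets scatter around 0.

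The 16 members below the filter were INHBB, BMP7, BMP15, TGFBR3, ACVR2A, ACVR2B, FST, FGF1, FGF2, FGF7, FGF9, FGF12, FGF18, FGFR2, FGFBP3 and EGF. Their intensities ran from 11.4 to 79.7, and 8 of them were members of the FGF system. FST, follistatin, which binds and blocks activin, read 54.5 and 43.6 in MRV, 50.2 and 44.9 in MR, and 50.0 and 46.7 in NC. The co-receptor gene TGFBR3 read 25.6 and 41.9 in MRV, 25.5 and 36.5 in MR, and 42.2 and 45.3 in NC, with both NC arrays highest. FGF2 read 27.7 and 37.2 in MRV, 28.4 and 23.5 in MR, and 24.7 and 30.5 in NC, while EGF stayed between 11.4 and 12.9. FGF18, singled out after its values had been seen, read 36.0 and 29.0 in MRV, 36.4 and 45.7 in MR, and 79.7 and 59.7 in NC, so both NC arrays lay above the other 4. In a fit with no filter its log2 difference was -0.58 in MR against NC (limma adjusted p = 1) and -0.82 in MRV against NC (limma adjusted p = 0.883).

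Other genes of these pathways were taken from fixed lists that hold no member. Of 43 modulators and targets of TGF-beta and BMP signalling, 20 were measured and 16 tested. None passed the adjusted threshold with limma, while 3 had an unadjusted p under 0.05 in MR against NC, 1 in MRV against MR and 5 in MRV against NC. Over all probe sets those shares were 4.02%, 7.28% and 5.29%. The median log2 difference was 0.035 in MR against NC, -0.16 in MRV against MR and -0.14 in MRV against NC, with 4 of 16 higher in MRV than in MR, against 48.6% of all probe sets. In MR against NC 9 of 16 were higher in MR, against 50.6% of all probe sets. THBS1, thrombospondin 1, which activates latent TGF-beta, read 353 and 468 in MRV, 395.5 and 570.5 in MR, and 823 and 746 in NC. Both NC arrays lay above all lesioned animals, and the log2 difference was -0.92 in MRV against NC (SE 0.22, limma adjusted p = 0.814) and -0.70 in MR against NC (SE 0.22, limma adjusted p = 0.999955). ID1, a transcriptional target of BMP signalling, read 829 and 828 in MRV, 816 and 844 in MR, and 1184 and 977 in NC, and again both NC arrays were highest. The third gene with an unadjusted p under 0.05 in MR against NC, ITGAV, went the other way. It read 1598 and 1521 in MRV, 1889 and 1683 in MR, and 1477 and 1402 in NC. Its log2 difference in MR against NC was 0.31 (SE 0.11, limma adjusted p = 0.999955).

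POSTN, periostin, a matrix protein gene induced by TGF-beta that is also in the fibroblast list, read 462 and 1300.5 in MRV, 1676 and 1409.6 in MR, and 1932 and 2258.5 in NC. The groups did not overlap, and MRV1 was far below the rest. Its log2 difference in MRV against NC was -1.41 (SE 0.45, limma adjusted p = 0.904), and -0.68 without MRV1. In MRV against MR it was -0.97 with all arrays, -0.24 without MRV1 and -0.11 in the fit that holds the actin ratio. TAGLN, a smooth muscle gene and TGF-beta target, read 663 and 770.5 in MRV, 966 and 942 in MR, and 991 and 833 in NC, with both MRV arrays lowest.

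Of 40 genes that carry the signal of receptor kinases, 16 were measured and 13 tested, and none passed the adjusted threshold with limma. An unadjusted p under 0.05 was seen for 1 of 13 in MR against NC, 2 of 13 in MRV against MR and 1 of 13 in MRV against NC. The shares over all probe sets were 4.02%, 7.28% and 5.29%. MAP2K2, a kinase of the MAP kinase cascade, read 522.5 and 493 in MRV, 658 and 642 in MR, and 649 and 606.5 in NC, so both MRV arrays were lowest. PDPK1, the kinase that activates AKT, read 603 and 593 in MRV, 407 and 498 in MR, and 576 and 590.0 in NC, so both MR arrays were lowest. DUSP6, a phosphatase induced by MAP kinase signalling, read 183 and 164 in MRV, 197 and 174 in MR, and 489.7 and 199.8 in NC. For DUSP6, as for EGFR and FGF13, NC1 was far above the rest, and its log2 difference in MR against NC of -0.72 was -0.10 without NC1. The lists of the VEGF and angiopoietin system (5 of 11 tested) and of the EGF family (1 of 9 tested) held 0 genes with an unadjusted p under 0.05 or an adjusted p under 0.05 with limma in any comparison.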

How the data were processed

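The authors deposited a table of linear intensity values, 1 for each probe set on each array. The near-equal medians show that they had been normalized between arrays. MAS5 and RMA are both listed, without versions, in the submitters' processing notes, and the sources used here do not say which of them gave these values. Scanner files were not used here. Titles gave each sample its group and replicate number. Each array is a separate animal, so the spread within a group holds animal and technical variation, and the number of arrays limits precision.

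After removal of 124 control probe sets, 23999 remained. The platform annotation gave 1 symbol to 10069, several to 198 and none to 13732, and all 45 member genes matched the RefSeq gene table of Sscrofa11.1 by Entrez ID under the same symbol. The tested probe sets were the 14400 whose mean of all arrays reached the 40th percentile, 61.4. Values were taken as log2(intensity + 16), which understates changes of dim probe sets, and analysed in limma 3.58.1 (lmFit, then eBayes; R 4.3.3) with 1 coefficient for each group and no covariate. Residual degrees of freedom were 3 and prior ones 2.78, and standard errors are the moderated ones. The fit was also run on simulated data with independent noise for each value. Those data hold no difference between whole arrays, such as that of NC1, so the run does not cover such differences. Alternatives covered the pseudocount, the filter, quantile normalization, the probe sets used, the arrays in the fit, the variance prior, a replicate block, the actin ratio and each array left out.

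Members and lists were chosen with earlier results of these data known. Members are given with all array values if they had an unadjusted p under 0.05, or a log2 difference of at least 0.5 without overlap, in any comparison, or belonged to a fixed core of pathway genes. Pathway genes were named by the same p or fold rule, up to 4 a list by smallest p. BMPR1A, BMPR1B, SMAD1, IGFBP2, FGF18 and ITGAV are given with array values outside these rules, so the patterns described for them were not planned.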

Additional observations from a re-analysis of the deposited data

How the results depend on the processing

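No member passed the adjusted threshold in any alternative, in any comparison, and the smallest adjusted p of a named gene was 0.0600. Of 78 single-gene differences, none past the threshold, 45 had another sign in at least 1 alternative. The count of members at least 0.5 log2 apart without overlap in MR against NC was 1, and became 0 with a pseudocount of 64, 2 with no filter and 0 with the probe sets of each gene averaged. In MRV against MR it was 1, and 3 with the probe sets averaged. Leaving out 1 array makes overlap less frequent. In MR against NC this gave counts from 1 to 4 (4 without NC2, 2 without MR2), in MRV against MR from 2 to 3, and in MRV against NC from 0 (without NC1) to 7 (without NC2), against 3 with all arrays. Without 1 array the member median ran from -0.045 to 0.10 in MR against NC, from -0.15 (without MR1) to 0.046 (without MR2) in MRV against MR, and from -0.056 to -0.0063 in MRV against NC. A lone array was assumed to vary like the other groups. Over all probe sets, the count called in MR against NC was 1, and 0 in 11 of 14 alternatives. In MRV against MR it was 0, and 2 with the replicate block. The numbers 1 and 2 mark separate animals, and deviations of same-numbered animals correlated at 0.019, 0.202 and 0.34. With the replicate block 0 members passed, and 0, 3 and 3 members had an unadjusted p under 0.05 in MR against NC, MRV against MR and MRV against NC, against 1, 2 and 2 without it.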
